A study of Mus musculus with 59 samples.

Results

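The 10 genes described here encode host proteins that bind polyoma middle T, the oncoprotein that drives tumors in this mouse model. They are the Src family kinases Src, Yes1 and Fyn, the adaptor Shc1, the PI3 kinase subunits Pik3ca, Pik3r1 and Pik3r3, the phospholipase Plcg1, and the PP2A subunits Ppp2ca and Ppp2r1a. They were taken by symbol from tables of 55421 genes and of 33282 genes with intronic reads, and all 10 had a row in each table. The study sequenced total RNA of 59 mammary tumors, 19 from mice given vehicle, 20 given methylparaben and 20 given propylparaben, and its title asks what long exposure to low amounts of parabens does to tumor growth and spread. Parabens are preservatives, esters of para-hydroxybenzoic acid, and the 2 used here carry a methyl or a propyl group. All mice were PyMT (+/-) of the line B6.FVB-Tg(MMTV-PyVT)634Mul/LellJ, vehicle mice included. The transgene is under the mouse mammary tumor virus promoter, which is active mainly in mammary epithelium. The labels give no dose, length of exposure, age or date. Nor do they say whether tumors came from separate animals. All tests treated the 59 tumors as independent, and if some shared a mouse the p-values would be too small. A p-value here reflects the spread between tumors, which may be technical in part.

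Middle T has no enzyme activity of its own. It first takes up the scaffold and catalytic subunits of the phosphatase PP2A, then a Src family kinase, which phosphorylates tyrosines on middle T. Those tyrosines are docking sites for Shc1, which leads through Grb2 to Ras and ERK, for the regulatory subunits of PI3 kinase, which lead to AKT, and for phospholipase C gamma 1, which leads to calcium and protein kinase C. These steps take place on proteins, and the values below are RNA levels only. The RNA of middle T itself was not analysed here.

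Libraries held between 1166502 and 2032789 reads on genes and between 307255 and 1059351 intronic reads. All 12 markers of epithelial cells, such as keratins and Epcam, were above 0 in every library, with summed levels from 1496 to 2783. Levels are normalized counts as deposited, which put libraries of unequal depth on one scale, given as mean ± SD. Some fits left out 7 libraries, vehicle replicates 7, 8, 10, 13, 14 and 19 and propylparaben replicate 1. They had the lowest values on the first principal component of all genes, and they are the end of a continuous range rather than a separate set (the last of them at -36.3, the next library at -31.8). Methylparaben replicate 5 stood apart by its mitochondrial reads, 11.5 % of reads on genes against a median of 3.53 % over all libraries. It was also the highest on that component (56.3, next 32.5), and its scores (mean log2 levels of marker lists) were the highest of its group for fat cells (8.77, next 5.68), skeletal muscle (8.86, next 6.25) and endothelium (4.68, next 3.65). Fold changes are log2 ± SE from limma, fitted over all tested genes, and a call is a Benjamini-Hochberg adjusted p under 0.05 over all 14487 genes tested.

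Among the partners, the 2 regulatory subunit genes of PI3 kinase differed between methylparaben and vehicle tumors, in opposite directions. Pik3r1 was higher and Pik3r3 lower, and the other 8 genes had absolute log2 fold changes of at most 0.18 in that comparison. All 10 genes passed the filter on low values (a mean of at least 1), and 2 of 10 were called where 1.32 % of all tested genes were. In the same comparison 2 of 10 had an unadjusted p under 0.05, against 22.1 % of all genes. In propylparaben against vehicle none of the 10 was called, where 0.0276 % of all genes were, and 2 of 10 had an unadjusted p under 0.05, against 18.4 % of all genes. Between the esters none was called, no gene of the whole table was, and none of the 10 had an unadjusted p under 0.05, against 2.15 % of all genes. Both ester groups were set against the same 19 vehicle tumors, so their values stand side by side and do not support each other.

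**Figure D1:**
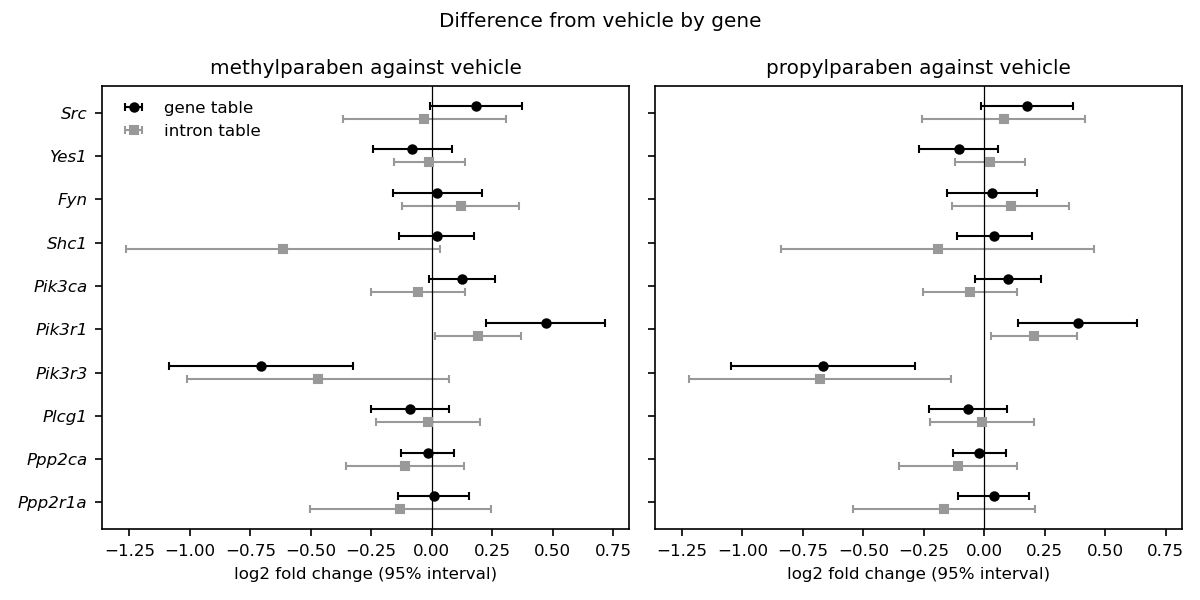
Log2 fold change (x axis) of each of the 10 genes (y axis) with 95% interval, methylparaben against vehicle on the left and propylparaben against vehicle on the right. Black circles are the gene table and gray squares the intron table. Pik3r1 lies to the right of 0 and Pik3r3 to the left in both panels, and the gene intervals of the other 8 include 0.

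Pik3r1 encodes p85 alpha, the regulatory subunit whose SH2 domains dock on phosphorylated tyrosines and which holds the catalytic subunit stable and restrained. In vehicle tumors its level ranged from 268 to 858 with a median of 606. In methylparaben tumors it ranged from 442 to 948 with a median of 733, and in propylparaben tumors from 427 to 989.8 with a median of 688. The groups overlapped over most of their range. Vehicle had a low tail, with 6 tumors below the lowest value of either ester group, and its median was lower too. Above the vehicle median were 18 of 20 methylparaben tumors and 14 of 20 propylparaben tumors. The mean was 551 ± 173 with vehicle (n = 19), 734 ± 117 with methylparaben (n = 20) and 706 ± 186 with propylparaben (n = 20). Pik3r1 rose with methylparaben by 0.47 ± 0.12 (limma, adjusted p = 0.0404). With propylparaben the difference was 0.39 ± 0.12, which was not called (adjusted p = 0.0992). The esters differed by -0.09 (95% interval -0.33 to 0.16). The interval leaves room for a difference between the esters in either direction.

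Pik3r3 encodes p55 gamma, a shorter regulatory subunit that has the SH2 domains but lacks the SH3 and BH domains of p85. Vehicle tumors ranged from 23.0 to 83.6 with a median of 37.5. Methylparaben tumors ranged from 11.3 to 43.1 with a median of 23.7, and propylparaben tumors from 11.5 to 65.1 with a median of 22.0. Here vehicle was set apart by a high tail together with the absence of low values, since its lowest tumor was near the median of each ester group. Below the vehicle median were 17 of 20 methylparaben and 16 of 20 propylparaben tumors. The mean was 44.5 ± 20.6 with vehicle, 25.5 ± 8.42 with methylparaben and 28.4 ± 15.7 with propylparaben. Pik3r3 fell with methylparaben by 0.71 ± 0.19 on the log2 scale (limma, adjusted p = 0.0460). With propylparaben the difference was -0.67 ± 0.19, which was not called (adjusted p = 0.0774), and the esters differed by 0.04 (95% interval -0.34 to 0.41). The same vehicle tumor, replicate 10, had the lowest Pik3r1 and the highest Pik3r3 of all 59. Pik3r3 shares 1289 exon bases with the same-strand gene Gm49337, listed at 0, so reads there may have been set aside as ambiguous.

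**Figure D2:**
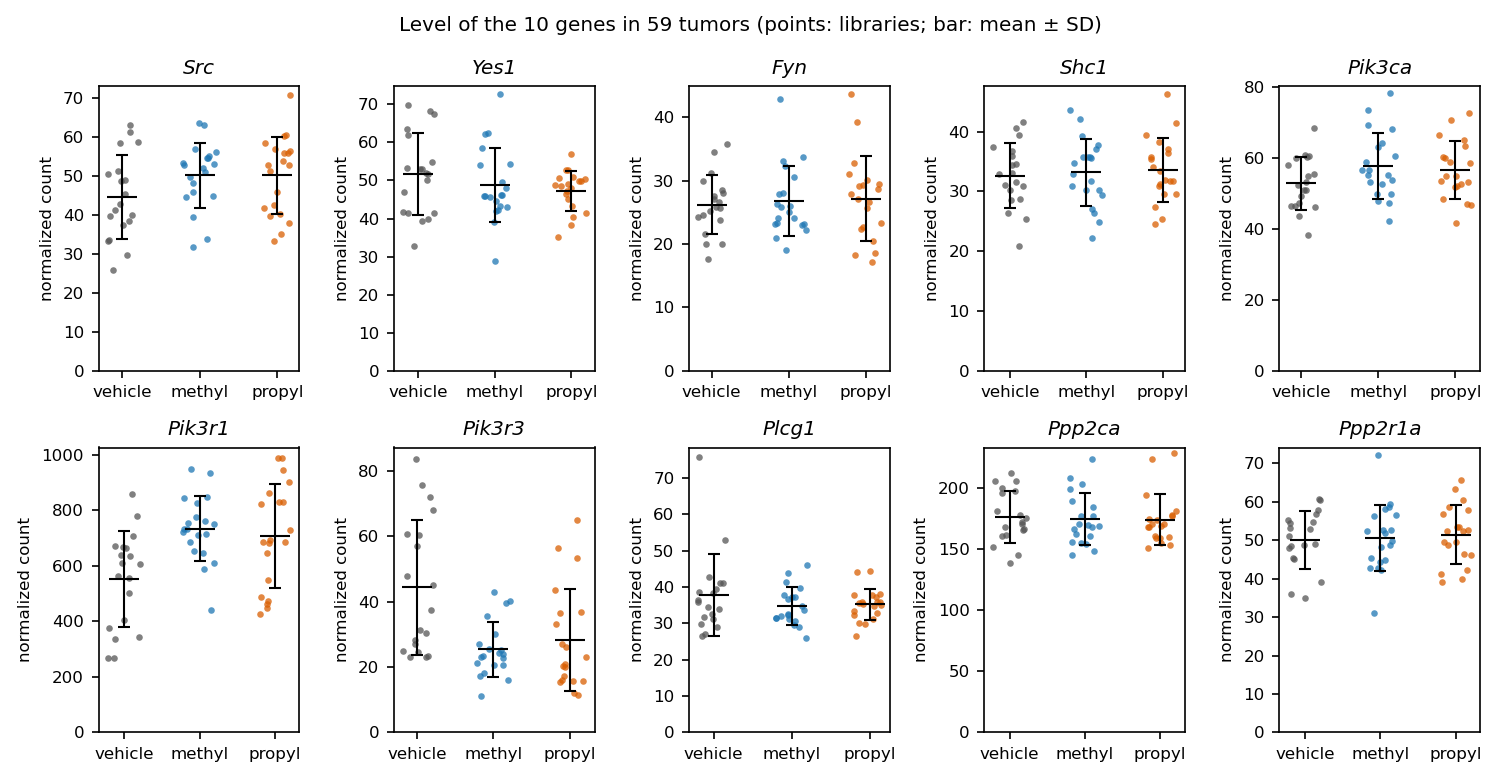
Level of each of the 10 genes (y axis, normalized count, from 0) in the 3 groups (x axis: vehicle, methylparaben, propylparaben). Points are libraries and bars are mean ± SD. Pik3r1 has a low tail and Pik3r3 a high tail in vehicle, and Plcg1 has 1 vehicle tumor, replicate 10, at 75.9. Yes1 is narrower in propylparaben (35.3 to 56.9), and the groups overlap for every gene.

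Because the 2 genes encode alternative partners of the same catalytic subunits, their ratio was taken in each tumor. It compares 2 genes of unlike length, so only its change between tumors is read. The median of Pik3r1 over Pik3r3 was 13.3 in vehicle (range 3.20 to 37.1), 32.4 in methylparaben (16.4 to 57.8) and 35.4 in propylparaben (6.90 to 86.0). The lowest methylparaben ratio was above the vehicle median. The ratio was formed from the 2 genes called in opposite directions, so its separation restates those calls and adds no support.

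The calls for both genes were close to the threshold and depended on how the fit was made. Both held in count tests on recovered reads: Pik3r1 had an adjusted p of 0.0386 with edgeR and 0.0244 with DESeq2, and Pik3r3 had 0.0200 and 0.0096. Neither was called without the 7 lowest libraries, where Pik3r1 was at 0.22 and Pik3r3 at -0.40 (limma, adjusted p = 0.844 for each). With 1 library left out at a time, Pik3r1 kept its call in 41 of 59 fits and Pik3r3 in 36 of 59. These 59 fits include those without a propylparaben tumor, which is not part of this comparison. Every lost call, 18 for Pik3r1 and 23 for Pik3r3, came from leaving out 1 of the 19 vehicle or 20 methylparaben tumors. Without methylparaben replicate 5 the values were 0.48 for Pik3r1 (limma, adjusted p = 0.0552) and -0.65 for Pik3r3 (adjusted p = 0.0739).

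Marker lists of dividing cells and of other cell types also had unequal levels in the groups. All 20 mitosis genes, such as Plk1 and Cdc20, had lower estimates in methylparaben than in vehicle tumors, and 2 of the 20 were called. Their summed level ranged from 552 to 2174 in vehicle, from 460.1 to 1592.5 in methylparaben and from 519 to 1994 in propylparaben, and no marker was at 0 in any library. Fat cell markers had higher estimates with methylparaben for 13 of 13 genes, fibroblast markers for 13 of 14, macrophage markers for 12 of 12, endothelial markers for 12 of 12 and skeletal muscle markers for 13 of 13, and none of these was called. With propylparaben these counts were 13 of 13, 13 of 14, 12 of 12, 11 of 12 and 13 of 13, with no call. Of all 14487 tested genes, 7423 had higher estimates with methylparaben and 7221 with propylparaben, and 1.32 % and 0.0276 % were called. All 20 mitosis genes had lower estimates with propylparaben too, also with no call. An unadjusted limma p under 0.05 with methylparaben was found for 20 of 20 mitosis, 12 of 13 fat cell and 10 of 14 fibroblast markers. Propylparaben gave 13 of 20, 1 of 13 and 10 of 14. The shares of all genes were 22.1 % and 18.4 %. Macrophage, endothelial and skeletal muscle markers gave 3 of 12, 5 of 12 and 2 of 13 with methylparaben. The same lists gave 3 of 12, 4 of 12 and 0 of 13 with propylparaben. Epithelial markers had higher estimates for 10 of 12 with methylparaben and 8 of 12 with propylparaben. For tested T cell markers it was 3 of 5 and 2 of 5, and for B cell markers 4 of 6 and 5 of 6. The summed fat cell level ranged from 94.9 to 719 in vehicle, from 143 to 12753 in methylparaben and from 130.5 to 3437.5 in propylparaben, with medians of 306, 787 and 393. The summed skeletal muscle level ranged from 8.1 to 1061 (median 18.6), from 9.5 to 9566.5 (median 284) and from 6.5 to 931.8 (median 189.9) in the same order. Methylparaben replicate 5 had the highest fat cell and skeletal muscle scores of all 59 libraries. The summed fibroblast level ranged from 485 to 5529.6, from 1567 to 5193 and from 1018 to 6422. For macrophage markers the ranges were 254 to 1239.8, 613.5 to 1345 and 510.3 to 1214, and for endothelial markers 112 to 222, 105 to 521 and 112 to 272. In bulk tissue, fewer cells of a type and less RNA per cell cannot be told apart. With the mitosis score (mean log2 level of the 20 genes) as a covariate, Pik3r1 was at 0.21 and Pik3r3 at -0.29 with methylparaben, and neither was called (limma, adjusted p = 0.928 for each). With 6 tissue scores as covariates the values were 0.30 (adjusted p = 0.433) and -0.36 (adjusted p = 0.550). The directions held in each of these fits.

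The 6 vehicle libraries at the low end of the first component had a mean Pik3r1 of 377, against 631 in the other 13 vehicle libraries. Their mean Pik3r3 was 65.1 against 34.95. Propylparaben replicate 1, at the same end, had the lowest Pik3r1 of its group (427). Vehicle replicate 13 was the exception among the 6, with Pik3r1 at 672 beside Pik3r3 at 60.7. No test was made between these libraries, which were picked from the data.

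The start regions of the 2 genes are shown because their RNA moved in opposite directions across tumors. All 10 genes had an entry in the RefSeq promoter table (build GRCm38.p6), and the 250 bases before the most upstream listed start were searched on both strands for CCAAT (a box bound by NF-Y), GGGCGG (a GC box), TTTGAA (a cell cycle homology region) and GTAAACA (a FoxO core). No match of one motif overlapped another in these 10 windows. Pik3r1 lies on chromosome 13 at 101680563 to 101768217 on the minus strand and Pik3r3 on chromosome 4 at 116221618 to 116303056 on the plus strand (GENCODE M21, GRCm38). The windows are chr13:101768218-101768467 on the minus strand and chr4:116221166-116221415 on the plus strand, printed 5′ to 3′ in the direction of transcription, with CCAAT or its reverse complement in capitals.
Pik3r1: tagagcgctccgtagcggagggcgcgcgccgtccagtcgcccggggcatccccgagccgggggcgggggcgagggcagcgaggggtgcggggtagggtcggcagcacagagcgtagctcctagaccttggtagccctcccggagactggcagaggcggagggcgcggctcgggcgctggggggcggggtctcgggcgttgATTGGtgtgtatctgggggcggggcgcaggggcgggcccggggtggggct
Pik3r3: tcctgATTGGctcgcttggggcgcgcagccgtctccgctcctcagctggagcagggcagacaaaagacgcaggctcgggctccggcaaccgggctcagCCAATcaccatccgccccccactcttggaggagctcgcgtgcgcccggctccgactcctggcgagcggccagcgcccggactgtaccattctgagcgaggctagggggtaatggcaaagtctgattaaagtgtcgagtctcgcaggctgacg
The Pik3r1 window held 1 CCAAT match, whose first base lay 50 bases before the start, and the Pik3r3 window held 2, at 245 and 152 bases before it. Of 32851 RefSeq windows of this length, 33.8 % held CCAAT. The Pik3r1 window held 4 GC boxes and the Pik3r3 window 1, and 32.7 % of all windows held at least 1. Neither window held TTTGAA, found in 15.99 % of windows, or GTAAACA, found in 3.17 %. GC content was 76.4 % and 65.6 %. Of the other partners, Shc1 held 4 CCAAT matches and Fyn, Plcg1 and Ppp2r1a 1 each, while Src, Yes1, Pik3ca and Ppp2ca held none. Each of the other partner windows held from 1 to 3 GC boxes. Thus neither motif was particular to the opposed genes. Pik3r1 had 2 listed windows and Pik3r3 had 3, and only the most upstream of each was searched. A match is a run of letters in a window and says nothing about binding.

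Pik3ca encodes p110 alpha, the catalytic subunit that makes the lipid signal. It ranged from 38.2 to 68.5 in vehicle (median 52.4), from 42.3 to 78.3 in methylparaben (median 55.9) and from 41.6 to 72.6 in propylparaben (median 54.9). The groups overlapped, with 15 of 20 methylparaben and 14 of 20 propylparaben tumors above the vehicle median. The differences from vehicle were 0.12 ± 0.07 with methylparaben (limma, adjusted p = 0.276) and 0.10 ± 0.07 with propylparaben (adjusted p = 0.444). The other class I catalytic and regulatory genes were not called. Pik3cb (p110 beta, mean level 40.2 over all tumors), Pik3cd (p110 delta, 16.8) and Pik3r2 (p85 beta, 16.6) were at -0.004, -0.02 and -0.02 with methylparaben and at -0.03, 0.08 and -0.16 with propylparaben.

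The 3 Src family kinases, which phosphorylate middle T, were not called in any comparison. Src ranged from 25.8 to 63.2 in vehicle (median 42.7), from 31.9 to 63.7 in methylparaben (median 52.5) and from 33.3 to 70.8 in propylparaben (median 52.8). The ranges overlapped, with 17 of 20 methylparaben and 13 of 20 propylparaben tumors above the vehicle median. The differences were 0.18 ± 0.10 (limma, unadjusted p = 0.0563, adjusted p = 0.239) and 0.18 ± 0.10 (adjusted p = 0.312).

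Yes1 was not called either. It ranged from 32.7 to 69.8 in vehicle (median 52.1), from 28.9 to 72.6 in methylparaben (median 46.1) and from 35.3 to 56.9 in propylparaben (median 48.6). Of the ester tumors, 14 of 20 with methylparaben and 17 of 20 with propylparaben were below the vehicle median. The differences were -0.08 ± 0.08 (limma, adjusted p = 0.591) and -0.11 ± 0.08 (adjusted p = 0.495). Its coefficient of variation was 20.9 % in vehicle, 19.9 % in methylparaben and 11.2 % in propylparaben. Yes1 shares 635 exon bases with Gm10461 on the opposite strand, and the strand setting of the counting is not given in the sources used here.

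Fyn had like values in the 3 groups, from 17.7 to 35.8 in vehicle, 19.0 to 42.8 in methylparaben and 17.1 to 43.6 in propylparaben. Its differences from vehicle were 0.02 ± 0.09 and 0.03 ± 0.09. Of its relatives, Lyn (mean level 62.9) was at 0.20 and 0.16 with the methyl and propyl ester, and Lck, the T cell kinase (3.22), at -0.19 and -0.19. Neither was called.

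Shc1, the adaptor that passes the signal to Grb2 and Ras, ranged from 20.8 to 41.6 in vehicle (median 32.97), from 22.3 to 43.6 in methylparaben (median 33.8) and from 24.5 to 46.4 in propylparaben (median 32.7). In each ester group 10 of 20 tumors were above the vehicle median and 10 below. The differences were 0.02 ± 0.08 and 0.04 ± 0.08 (limma, adjusted p = 0.909 and 0.806), with 95% intervals from -0.13 to 0.18 and from -0.11 to 0.20. Its relatives were low or near 0. Shc4 had a mean level of 13.6 and Shc2 of 1.19, and Shc3 (0.157) was at 0 in 40 libraries and was not tested. Shc2 was at 0.49 ± 0.18 and 0.48 ± 0.18 against vehicle (limma, adjusted p = 0.0960 and 0.146), with a median of 1 read a library in vehicle.

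Plcg1, the phospholipase that splits the lipid PIP2 after docking, ranged from 26.5 to 75.9 in vehicle, from 25.9 to 46.1 in methylparaben and from 26.5 to 44.4 in propylparaben, with medians of 35.9, 33.1 and 35.5. The top value was 1 tumor, vehicle replicate 10, from 197 reads, and the next vehicle tumor was at 52.8. The intron table showed the same tumor at 411, against a highest value of 263 in the methylparaben group and 233 in the propylparaben group. The differences from vehicle were -0.09 ± 0.08 and -0.07 ± 0.08 (limma, adjusted p = 0.534 and 0.691). Plcg1 shares 379 exon bases with Zhx3 on the opposite strand, whose mean level was 21.02. Plcg2, the gamma enzyme best known in blood cells, had a mean level of 33.3 and was at 0.08 and 0.10.

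The PP2A pair was not called. Ppp2ca, the catalytic subunit, ranged from 139 to 212 in vehicle, from 145 to 223 in methylparaben and from 151 to 228 in propylparaben, with medians of 172, 169 and 169. Its coefficient of variation over all 59 tumors was 11.9 %, the lowest of the 10 genes, against 53.7 % for Pik3r3, the highest. Ppp2r1a, the scaffold subunit to which middle T binds in place of a B subunit, ranged from 35.1 to 60.7, from 31.1 to 72.1 and from 39.04 to 65.6, with medians of 51.05, 50.9 and 52.4. The differences from vehicle were -0.02 ± 0.06 and -0.02 ± 0.06 for Ppp2ca, and 0.01 ± 0.07 and 0.04 ± 0.07 for Ppp2r1a. All 4 of these 95% intervals lay between -0.14 and 0.19. The second catalytic gene, Ppp2cb, had a mean level of 10.4, and the median of Ppp2ca over Ppp2cb was 16.2 in vehicle, 16.2 in methylparaben and 18.2 in propylparaben. Ppp2r1b, the second scaffold gene (23.6), was at -0.07 and -0.01. Ppp2ca shares 2985 exon bases with 9430098F02Rik on the opposite strand, so an unknown part of its reads cannot be assigned without the strand setting.

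Across genes, Pik3r1 had the highest level of the 10 by either measure of length. Per kilobase of all annotated exons, the mean level was 66.0 ± 17.6 for Pik3r1, 23.3 ± 2.77 for Ppp2ca, 14.9 ± 2.30 for Ppp2r1a and 11.1 ± 2.27 for Src. Below these came Yes1 (6.55 ± 1.19), Pik3ca (6.15 ± 0.93), Pik3r3 (6.15 ± 3.30), Fyn (6.13 ± 1.29) and Shc1 (5.87 ± 0.96), whose means lay within 1 SD of each other, and Plcg1 was lowest at 4.57 ± 0.95. Ppp2r1a and Src differed by less than the sum of their SDs, as did Shc1 and Plcg1. Per kilobase of the longest transcript the first 4 kept their order (93.6, 24.6, 21.1 and 12.4) and Pik3r3 was lowest at 6.20. The library type is not in the labels, and over 9141 genes the log2 level rose by only 0.07 per doubling of transcript length, so levels per gene are given too. Without division by length the means were 665 for Pik3r1, 175 for Ppp2ca and from 26.7 (Fyn) to 55.9 (Pik3ca) for the other 8.

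Intronic reads come mostly from RNA that has not been spliced and were normalized apart from the gene table. All 10 genes passed the filter there, and none was called in any comparison, where no intron of 14281 was, although 13.3 % (methylparaben), 12.1 % (propylparaben) and 3.47 % (between esters) had an unadjusted p under 0.05. Intronic Pik3r1 had means of 486 ± 96.1 in vehicle, 547 ± 67.6 in methylparaben and 559 ± 107 in propylparaben, from 127 to 620 reads a library. As in the gene table, most ester tumors were above the vehicle median, 18 of 20 and 15 of 20. The differences were 0.19 ± 0.09 (limma, unadjusted p = 0.0344, adjusted p = 0.334) and 0.21 ± 0.09 (unadjusted p = 0.0234, adjusted p = 0.334). Intronic Pik3r3 rested on 1 to 22 reads a library. Its means were 15.4 ± 10.3, 9.72 ± 4.60 and 9.93 ± 7.38, and the differences were -0.47 ± 0.27 (limma, adjusted p = 0.450) and -0.68 ± 0.27 (unadjusted p = 0.0145, adjusted p = 0.308). The direction was that of the gene table for both.

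The gap between gene and intron levels could be tested for 9 of the 10, since Shc1 introns were below the mean of 10 needed, and none of the 9 was called, as was none of 6667 genes. For Pik3r1 the gap was larger with methylparaben than with vehicle by 0.28 ± 0.09 (limma, unadjusted p = 0.0025, adjusted p = 0.522), where 6.27 % of genes had an unadjusted p under 0.05. With propylparaben it was 0.18 ± 0.09 (unadjusted p = 0.0471, adjusted p = 0.677), where 7.27 % of genes had such a p, and between the esters, where 3.52 % had one, none of the 9 did. Over the 59 tumors, with group means removed, gene and intron levels of the same gene had a Pearson r of 0.76 for Pik3r1, 0.72 for Plcg1, 0.63 for Pik3r3, 0.58 for Fyn and 0.42 for Yes1. For Shc1 and Pik3ca r was 0.16 and 0.17, and for Src, Ppp2ca and Ppp2r1a it was -0.0008, 0.07 and -0.14. Low intronic reads may hold such values near 0. A library had 3 to 32 for Src, 8 to 44 for Ppp2ca, 1 to 27 for Ppp2r1a and 0 to 7 for Shc1. Pik3r3, with 1 to 22, still had the r of 0.63 given above. These r values are descriptions over tables from the same libraries.

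How the partners varied together was examined over the 59 tumors after group means were removed, with 45 pairs tested by permutation (100000 resamples) and adjusted over the 45. Of these, 6 pairs passed, 2 positive and 4 negative, and the median r of all 45 was 0.01. The share of passing pairs among genes at large was not computed, so the 6 cannot be set against it. Pik3r1 and Pik3r3 were opposed (r = -0.55, permutation p = 2e-05, adjusted p = 0.0009, Spearman rho = -0.54, permutation p = 3e-05, adjusted p = 0.0014). Without the 2 tumors farthest from the median of Pik3r1 r was -0.54, and without the 7 lowest libraries it was -0.47. Within groups r was -0.64 in vehicle and -0.67 in propylparaben but -0.04 in methylparaben, and this difference between groups was not tested. In the intron table the same pair had r = -0.48.

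**Figure D3:**
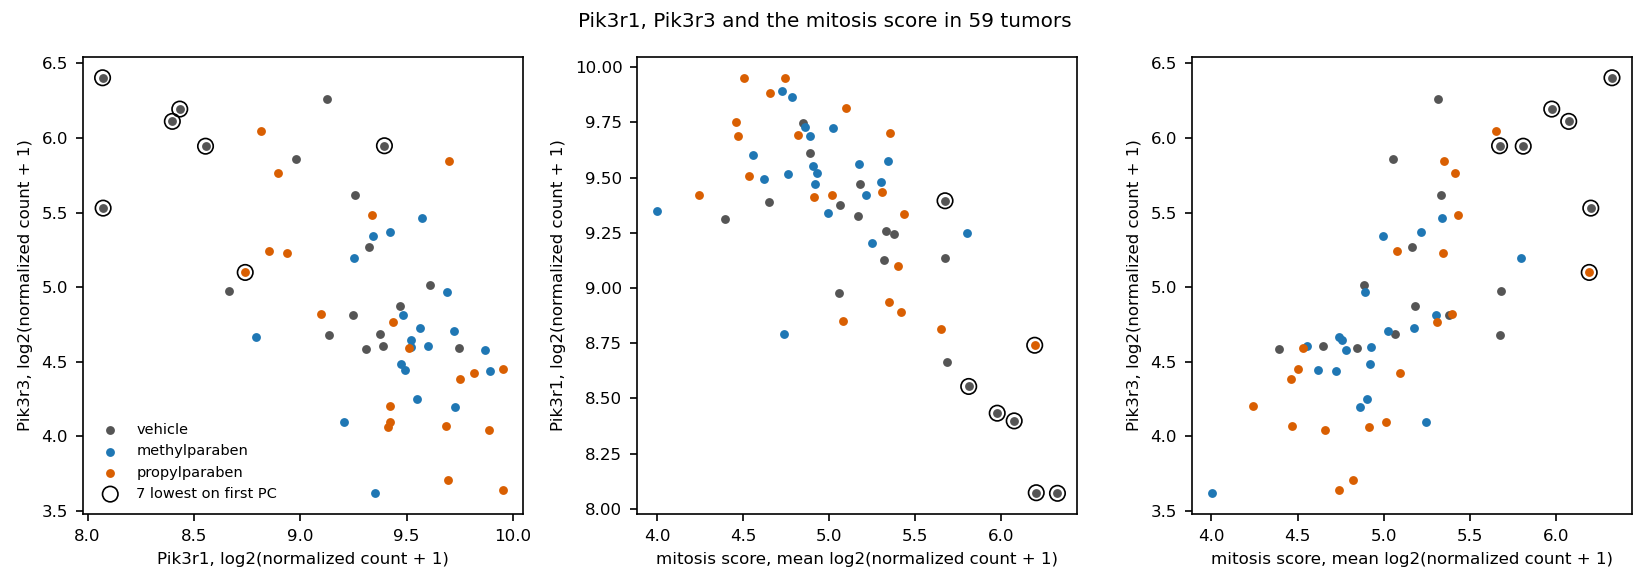
Left, Pik3r3 against Pik3r1 in 59 tumors, both as log2(normalized count + 1). Middle and right, Pik3r1 and Pik3r3 against the mitosis score (mean log2(normalized count + 1) of 20 genes). Colors give the groups and open rings the 7 libraries at the low end of the first principal component (PC). Over all 59 tumors r with the mitosis score is -0.67 for Pik3r1 and 0.67 for Pik3r3, but within methylparaben r for Pik3r1 is -0.12. Of the 6 ringed vehicle tumors, replicate 13 has Pik3r1 at 672, above the vehicle median of 606.

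Pik3r1 also varied with its catalytic partner. Pik3ca and Pik3r1 were positively related (r = 0.53, permutation p = 4e-05, adjusted p = 0.0009, rho = 0.50, adjusted p = 0.0016), with r of 0.66, 0.35 and 0.57 within vehicle, methylparaben and propylparaben, 0.54 without the 2 farthest tumors and 0.47 without the 7 libraries. Pik3ca and Pik3r3 were opposed (r = -0.38, permutation p = 0.0035, adjusted p = 0.0277, rho = -0.36, adjusted p = 0.0567), with r of -0.18, -0.39 and -0.56 within groups and -0.30 without the 2 farthest, and it did not pass without the 7 libraries (r = -0.37, adjusted permutation p = 0.0574). The PP2A pair Ppp2ca and Ppp2r1a was positively related (r = 0.38, permutation p = 0.0028, adjusted p = 0.0277, rho = 0.37, adjusted p = 0.0567), with r of 0.42, 0.42 and 0.30 within groups, 0.33 without the 2 farthest and 0.40 without the 7 libraries. Yes1 was negatively related to Pik3r1 (r = -0.41, permutation p = 0.0011, adjusted p = 0.0171, rho = -0.32, adjusted p = 0.101) and to Shc1 (r = -0.37, permutation p = 0.0037, adjusted p = 0.0277, rho = -0.31, adjusted p = 0.121). Within vehicle, methylparaben and propylparaben r was -0.56, -0.52 and -0.09 for the first of these and -0.56, -0.26 and -0.26 for the second. Without the 2 farthest tumors r was -0.38 and -0.41, and without the 7 libraries it was -0.33, which did not pass (adjusted permutation p = 0.0898), and -0.46. Fyn and Pik3ca passed without the 7 libraries (r = 0.40, adjusted permutation p = 0.0329) and not with all 59 (r = 0.32, adjusted permutation p = 0.0846). By Spearman's rho only the first 2 of the 6 pairs passed. No pair among the 3 Src family kinases passed, with r from -0.03 to 0.01.

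Each gene was then set against 9 scores, the mean log2 levels of marker lists of dividing cells and 8 cell or tissue types, 90 relations in one family. Of the 10 genes, 5 were related to the mitosis score. The share of all genes related to that score was not computed, so the count cannot be set against it. Pik3r3 was higher in tumors with a higher score (r = 0.67, permutation p = 1e-05, the smallest the resamples can give, adjusted p = 0.00015, rho = 0.70), with r of 0.67, 0.66 and 0.69 within vehicle, methylparaben and propylparaben. Pik3r1 was lower (r = -0.67, permutation p = 1e-05, adjusted p = 0.00015, rho = -0.64), with r of -0.84, -0.12 and -0.71 within groups, and the difference between groups was not tested. Without the 2 farthest tumors r was 0.66 for Pik3r3 and -0.61 for Pik3r1, and without the 7 libraries it was 0.61 and -0.47. These were the 2 genes still called without the 7 libraries. Yes1 (r = 0.37, adjusted permutation p = 0.0247), Ppp2r1a (0.35, 0.0334) and Pik3ca (-0.38, 0.0184) were called with all 59. Their r without the 2 farthest was 0.32, 0.31 and -0.30, and by rank Yes1 did not pass (rho = 0.31, adjusted permutation p = 0.0711).

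Cell type scores also divided the 2 regulatory subunits. The 9 scores come from the same tumors and can vary together. For example, vehicle replicate 8 had the lowest fat cell (1.94), fibroblast (3.99) and macrophage scores (3.69) of its group beside a mitosis score of 6.20. Correlations between scores were not computed, so the relations below and those with the mitosis score may not be separate findings. Pik3r3 was lower in tumors with higher fat cell (r = -0.62), fibroblast (-0.57), macrophage (-0.52) and endothelial scores (-0.40). Pik3r1 was higher in tumors with higher macrophage (0.65), fibroblast (0.58) and fat cell scores (0.42), and Pik3ca with endothelial (0.46), fat cell (0.45), fibroblast (0.44) and macrophage scores (0.38). The adjusted permutation p of these 11 relations lay between 0.00015 and 0.0219. Fyn was higher with endothelial (0.35) and fat cell scores (0.34) and lower with the epithelial score (-0.33), and Yes1 was lower with the macrophage score (-0.37), at adjusted permutation p from 0.0249 to 0.0491. Without the 7 libraries, Pik3r1 with the fat cell score (r = 0.34) and Pik3ca with the macrophage score (0.27) did not pass, and Fyn with the fibroblast score (0.44, against 0.30 with all 59) did. Pik3ca with the macrophage score had r of 0.57 in vehicle, -0.05 in methylparaben and 0.55 in propylparaben, and with the fibroblast score 0.56, 0.13 and 0.60. In the same order Pik3r1 had 0.79, 0.35 and 0.57 with macrophage, 0.69, 0.17 and 0.66 with fibroblast and 0.58, 0.14 and 0.65 with fat cell scores. Pik3r3 with the fat cell score had -0.60, -0.67 and -0.69. These differences between groups were not tested. By rank, Yes1 and Pik3ca with the macrophage score and Fyn with the epithelial score did not pass (adjusted permutation p = 0.185, 0.118 and 0.0553). Src, Shc1, Plcg1 and Ppp2ca passed with none of the 9 scores by Pearson r, and no gene passed with the T cell, B cell or skeletal muscle score by that measure. Ppp2r1a with the T cell score (rho = -0.40, adjusted permutation p = 0.0122) and Fyn with the fibroblast score (rho = 0.35, adjusted permutation p = 0.0316) passed by rank only. Relations with cell type scores in bulk tissue do not say which cells hold the RNA.

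**Figure D4:**
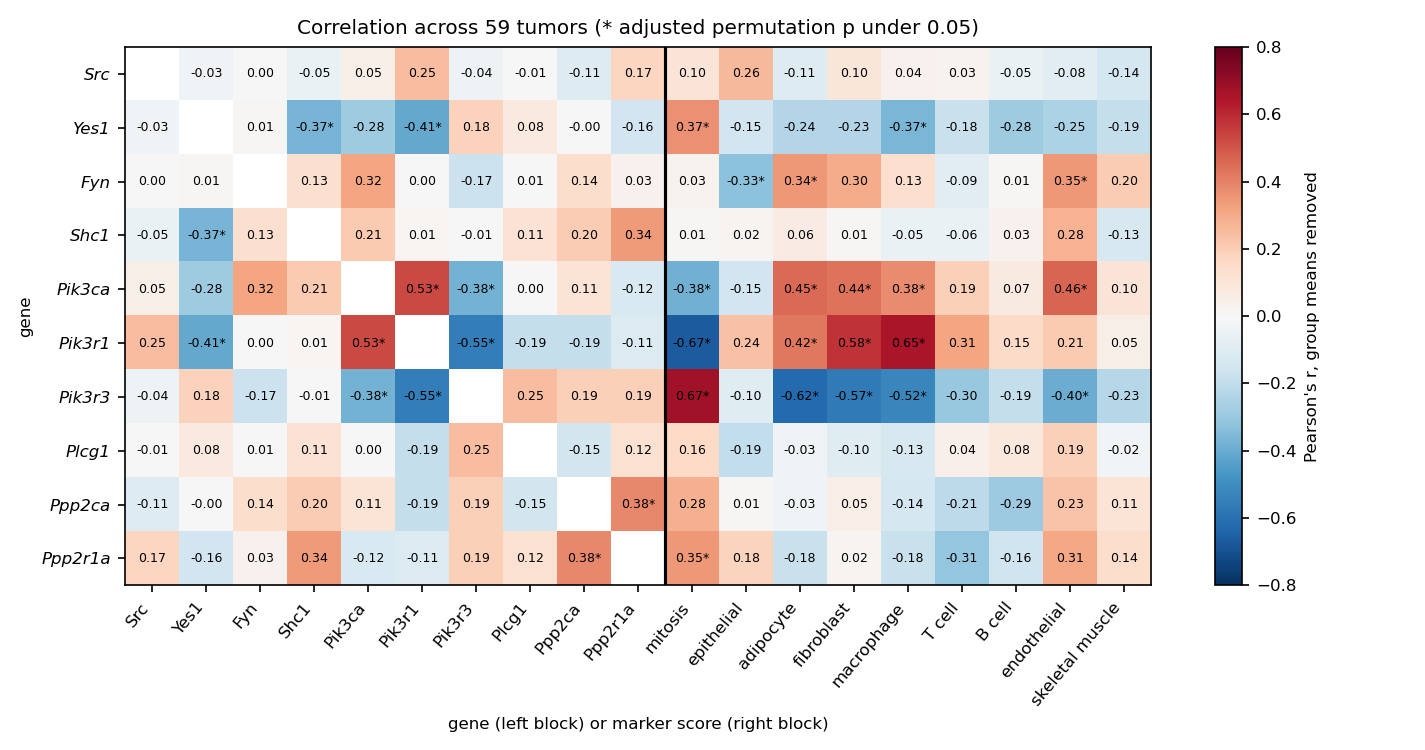
Pearson's r over 59 tumors with group means removed, for each of the 10 genes (rows) with the other 9 (left block) and with 9 marker scores (right block). Red is positive, blue negative, and a star marks an adjusted permutation p under 0.05. The rows of Pik3r1 and Pik3r3 have opposite colors for the mitosis, fat cell, fibroblast and macrophage scores, and the rows of Src, Shc1 and Plcg1 are pale in the score block.

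The wider routes downstream of the partners were read from 8 lists of 122 genes without the 10 partners, of which 116 were tested. With methylparaben 1 of the 116 rose and none fell (0.862 %, against 1.32 % of all tested genes), and the median log2 fold change was 0.06 against 0.01 over all genes. Beside the counts of higher estimates below, 7423 of all 14487 tested genes were above 0 with methylparaben (median 0.01) and 7221 with propylparaben (median -0.0005). The gene was Bcl6, a transcriptional repressor placed in the list of targets of FoxO, the factors that AKT holds back. Bcl6 was at 54.1 ± 14.9 in vehicle, 67.2 ± 10.1 in methylparaben and 70.7 ± 11.3 in propylparaben, higher than the vehicle median in 16 of 20 tumors of each ester group. Its change was 0.35 ± 0.10 with methylparaben (limma, adjusted p = 0.0488) and 0.42 ± 0.10 with propylparaben, which was not called (adjusted p = 0.0610). Of the 12 FoxO target genes 9 had higher estimates with methylparaben and 10 with propylparaben, with medians of 0.22 and 0.18. Txnip, another FoxO target that restrains glucose uptake, was at 225 ± 86.7, 317 ± 96.4 and 319 ± 129, with differences of 0.54 ± 0.16 and 0.50 ± 0.16 (limma, adjusted p = 0.0600 and 0.103).

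The other lists had no call in any comparison. Of the 21 other PI3 kinase and AKT genes, 17 had higher estimates with methylparaben and 16 with propylparaben, with medians of 0.09 and 0.08. Pik3cg, the catalytic subunit known from leukocytes, had the smallest p of that list with propylparaben, at 16.2 ± 6.13 in vehicle and 23.2 ± 10.3 in propylparaben (0.51 ± 0.14, limma, adjusted p = 0.0692). Of the 21 other PP2A subunits and regulators, 14 had lower estimates with methylparaben and 16 with propylparaben (medians -0.06 and -0.06). Ppp2r3a, a B'' regulatory subunit, went the other way, at 43.7 ± 10.1, 56.4 ± 15.5 and 51.8 ± 9.90 in the 3 groups (0.35 ± 0.10 with methylparaben, limma, adjusted p = 0.0510). Sfn, which encodes 14-3-3 sigma, was at 37.2 ± 15.2, 54.9 ± 21.9 and 50.8 ± 14.4 (0.57 ± 0.16 with methylparaben, limma, adjusted p = 0.0526, and 0.51 ± 0.16 with propylparaben, adjusted p = 0.103). Of 14 tested genes of the 14-3-3 and YAP list, 9 had higher estimates with methylparaben and 12 with propylparaben. Ctgf and Cyr61, listed there as well, were not matched by symbol and so were not read.

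For the Ras and ERK route, 14 of 18 genes of the Shc, Grb2 and Ras list had higher estimates with each ester (medians 0.06 and 0.04), and the 13 tested ERK response genes had medians of 0.05 and 0.07. All 7 other genes of the phospholipase C gamma route had higher estimates with each ester (medians 0.08 and 0.10), and the 10 tested Src family genes and regulators had medians of -0.002 and 0.05. Between the esters the smallest p-values among the 116 genes were those of Hras (-0.21, unadjusted p = 0.0431 in limma) and Rasa1 (0.10), and neither was called.

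The genes most like each partner over the 59 tumors, out of 9142 with a mean of at least 10, were named by Pearson r with group means removed, as a description. For Pik3r1 they were Scarb2 (0.88), Zfp608 (0.86) and Slc5a8 (0.86), higher values than for any other partner. For Pik3r3 they were Tfrc, the transferrin receptor (0.78), Ccdc34 (0.74) and Fabp5, a fatty acid binding protein (0.73). For Src they were Arf3 (0.77), Cdc42se1 (0.73) and Sh3rf1 (0.72), and for Pik3ca Tmcc3 (0.67), Heg1 (0.66) and Sh3glb1 (0.64). Ppp2ca was closest to Ywhae (0.75), which encodes 14-3-3 epsilon and belongs to the 14-3-3 list, then to Nmt1 (0.71) and Lrrc59 (0.71). Ppp2r1a was closest to Rnf187 (0.70), Uba1 (0.69) and Khsrp (0.68). Yes1 was closest to Cdc40 (0.67), Nup54 (0.65) and Gm42418 (0.60). The closest genes were less alike for Shc1 (Snx6, 0.61), Plcg1 (Ncoa3, 0.59) and Fyn (Abi2, 0.50). None of the 10 partners was among the 3 closest genes of another.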

How the data were processed

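The deposited tables give reads on genes and intronic reads per gene as a signal that the labels call normalized counts. The submitters' processing notes name bcl2fastq 2.20.0.422, the aligner STAR 2.6.1d, the counter HTSeq 0.10.0 and the build GRCm38. Which annotation, strand setting and library type were used is not stated by them. Dividing each deposited value by its library's step gave whole reads (100 % within 1e-06), and 1 read was worth 0.323 to 0.664 in the gene table. The 5 HTSeq summary lines were left out of tests. Reads outside features were 13.7 to 35.5 % and reads aligned to several places 11.0 to 15.8 %. No pair of libraries within a group looked like a duplicate (lowest chi-square per degree of freedom 3.03, 2.66 and 2.07 in the 3 groups).

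Values were tested as log2(value + 1), which understates changes of low genes, with limma 3.58.1 (trend) in R 4.3.3, in 1 fit of 59 libraries and 3 group means. Genes and introns needed a mean of at least 1, and gene minus intron levels needed both means to be at least 10. Alternatives were other pseudocounts, filters and scalings, only the 2 groups compared, array weights, covariates, single libraries or 7 libraries left out, and edgeR 4.0.16 and DESeq2 1.42.0 on recovered reads. Correlations used Python 3.11.15 with numpy 2.4.6. The fit and the correlation test were tested on simulated data. Lengths and positions came from GENCODE M21.

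The 10 genes, the pathway and marker lists and the tests were chosen with earlier results of these data known. Named genes were the 10 partners, their direct paralogs whatever their values, pathway genes that passed, besides these the 3 with the smallest p in each comparison, and the 3 genes most like each partner. Of the listed pathway genes, 2 symbols (Ctgf and Cyr61) were not matched and 4 were below the filter. One result that the naming rule covers is not reported here.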

Additional observations from a re-analysis of the deposited data

How the results depend on the processing

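No paired analysis was possible because no label numbers the replicates, and the numbers used here only name libraries. For methylparaben against vehicle, the count of 2 partners called became 0 with no filter, with only the 2 groups compared, with array weights, with the mitosis score or 6 tissue scores as covariates, and without the 7 libraries at the low end of the first component. Neither Pik3r1 nor Pik3r3 was then called: adjusted p was 0.0843 and 0.0895 with no filter, 0.0686 and 0.0570 with 2 groups, and 0.0564 and 0.0814 with array weights. With other pseudocounts, a mean of at least 10, median-of-ratios scaling, quantile normalization, edgeR and DESeq2, both kept their calls. Their direction against vehicle held in every alternative run, and no called result reversed. With 1 library left out, the count ranged from 0 to 2 with methylparaben and from 0 to 2 with propylparaben. For these counts and the pathway counts below, the share of all genes called in each fit is not given. A change in them may therefore not be particular to these genes.

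Pik3r1 lost its methylparaben call in 18 fits (adjusted p 0.0515 to 0.0922, log2 0.42 to 0.48): without vehicle replicate 1, 2, 7, 8, 10, 14 or 19, or methylparaben replicate 2, 3, 5, 6, 7, 8, 11, 13, 15, 17 or 18. Pik3r3 lost its call in 23 fits (adjusted p 0.0505 to 0.0972, log2 -0.73 to -0.65): without vehicle replicate 1, 2, 4, 7, 8, 10, 13, 14, 18 or 19, or methylparaben replicate 2, 3, 5, 6, 7, 8, 10, 11, 12, 13, 15, 17 or 18. With propylparaben, Pik3r1 gained a call without vehicle replicate 5 or propylparaben replicate 1 (0.0419 and 0.0492), and Pik3r3 without vehicle replicate 5 or 17 or propylparaben replicate 1 or 4 (0.0345 to 0.0476).

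The 1 pathway gene called with methylparaben became 0 with no filter, quantile normalization, 2 groups, array weights, either covariate set and without the 7 libraries. It became 3 with median-of-ratios scaling, 4 with a mean of at least 10, 4 with edgeR and 6 with DESeq2, Bcl6 among them each time, and ranged from 0 to 8 with 1 library left out. With propylparaben the count of 0 became 1 with a mean of at least 10 and 3 with DESeq2, and ranged from 0 to 4 with 1 library left out. Correlated pairs fell from 6 to 2 with Spearman's rho, and partners related to the mitosis score from 5 to 2 without the 7 libraries. The cause of these changes was not tested. Intronic reads of Pik3r3, Shc1 and Ppp2r1a, down to 1 or 0 in some libraries, limit what the intron table can show for them.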
